A study of Mus musculus with 20 samples.

Results

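The Hox genes of the mouse are arranged in 4 clusters, HoxA, HoxB, HoxC and HoxD, and their accessibility was read from ATAC-seq peak lists of C2C12 cells, mouse myoblasts that form muscle cells in culture. The members were the protein-coding genes whose symbols are Hoxa, Hoxb, Hoxc or Hoxd followed by a number, which gave 39 genes of 21631 in the gene table. Each cluster was taken with 20 kb on either side. Peaks of the 20 lists were merged wherever they shared at least 1 bp, which gave 101352 regions, and 86 of these lay in the 4 Hox windows. Regions are numbered along the chromosome within each window, so that Hoxc region 41 is the region at position 41 of the HoxC window. A library that had a peak overlapping a region counted as a call of that region, and a gene was called where a peak lay within 1 kb of either of its ends.

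The 20 libraries formed 10 groups of 2. Wild-type (WT) cells and Setd2 knockout (KO) cells were sampled at D0, and at D1 and D5 each genotype was sampled in control medium (CTL) and under methionine restriction (MR). Setd2 is the methyltransferase that trimethylates lysine 36 of histone H3, with S-adenosylmethionine, made from methionine, as the methyl donor. The KO groups held 1 library from each of 2 KO lines, so that line 1 and line 2 recur in every condition. Whether each line is a single clone, and how the gene was edited, are not given in the sources used here. The labels do not say that the WT libraries came from separate cultures, so p-values measure the spread between these libraries, which may be technical.

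Hox proteins are homeodomain transcription factors that give cells along the head to tail axis and in the limbs their positional identity. Genes of 1 paralogue number in different clusters descend from a shared ancestral gene, and low numbers (anterior) are used nearer the head than high numbers (posterior). Polycomb complexes keep unused Hox genes silent, trithorax methyltransferases act against them, and MEIS proteins bind DNA together with Hox proteins. Cultured cells commonly keep a Hox pattern that reflects the body position of their tissue of origin.

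RefSeq (GRCm38.p6) promoter sequences matched 22 of the 39 genes with 24 entries, each running from 250 bases before to 50 after the start, and 4 of the 24 (16.7%) overlapped a peak in at least 1 library, against 38.8% of the 32619 entries of the table. All 4 were in HoxA, which had 10 entries, and 0 of 1 entry in HoxC, 0 of 3 in HoxB and 0 of 10 in HoxD were called. The 250 bases before the start are given here for the 3 promoters that were called in 5 or more libraries and for 2 closed promoters of HoxD, Hoxd3 and Hoxd13, which were selected after the calls were known. Capitals mark bases that lie inside a merged peak region, and each sequence runs 5′ to 3′ on the strand of its gene.
Hoxa3, chr6:52213068-52213317, minus strand, called in 13 of 20 libraries: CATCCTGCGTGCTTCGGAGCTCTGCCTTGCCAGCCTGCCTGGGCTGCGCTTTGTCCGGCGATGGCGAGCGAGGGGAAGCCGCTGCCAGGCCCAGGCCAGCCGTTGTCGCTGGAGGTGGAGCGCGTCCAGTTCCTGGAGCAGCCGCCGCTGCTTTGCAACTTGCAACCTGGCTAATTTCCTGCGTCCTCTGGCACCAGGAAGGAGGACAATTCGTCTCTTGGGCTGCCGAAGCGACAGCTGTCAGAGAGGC
Hoxa11, chr6:52245811-52246060, minus strand, called in 12 of 20 libraries: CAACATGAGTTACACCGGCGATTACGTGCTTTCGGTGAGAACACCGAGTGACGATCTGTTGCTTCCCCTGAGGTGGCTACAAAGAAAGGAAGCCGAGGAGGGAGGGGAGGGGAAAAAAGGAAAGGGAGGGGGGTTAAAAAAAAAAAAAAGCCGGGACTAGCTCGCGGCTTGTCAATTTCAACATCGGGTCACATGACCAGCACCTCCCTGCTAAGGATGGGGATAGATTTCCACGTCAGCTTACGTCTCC
Hoxa13, chr6:52260881-52261130, minus strand, called in 5 of 20 libraries: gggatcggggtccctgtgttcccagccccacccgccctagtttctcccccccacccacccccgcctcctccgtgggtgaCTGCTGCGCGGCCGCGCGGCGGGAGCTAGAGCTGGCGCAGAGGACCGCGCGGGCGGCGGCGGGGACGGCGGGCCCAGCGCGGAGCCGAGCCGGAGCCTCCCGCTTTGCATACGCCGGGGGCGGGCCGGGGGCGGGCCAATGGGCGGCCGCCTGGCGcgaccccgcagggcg
Hoxd3, chr2:74711743-74711992, plus strand, called in 0 of 20 libraries: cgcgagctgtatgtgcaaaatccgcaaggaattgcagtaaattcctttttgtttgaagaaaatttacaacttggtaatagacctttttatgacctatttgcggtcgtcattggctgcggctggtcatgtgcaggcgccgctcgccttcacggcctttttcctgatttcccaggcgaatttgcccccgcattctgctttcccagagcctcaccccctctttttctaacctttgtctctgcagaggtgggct
Hoxd13, chr2:74667975-74668224, plus strand, called in 0 of 20 libraries: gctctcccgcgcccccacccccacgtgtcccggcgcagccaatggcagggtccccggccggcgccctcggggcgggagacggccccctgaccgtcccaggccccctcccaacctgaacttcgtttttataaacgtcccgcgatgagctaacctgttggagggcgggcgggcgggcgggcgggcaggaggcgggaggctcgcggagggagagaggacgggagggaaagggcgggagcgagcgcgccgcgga
The 250 bases of Hoxa3 and of Hoxa11 lay wholly inside a called region, and 156 of the 250 bases of Hoxa13 did. Base composition did not follow this order. The Hoxa3 sequence held 18 CpG and 64.8% G or C, Hoxa11 held 13 and 52.0%, and Hoxa13 held 35 and 80.0%. Among the closed promoters Hoxd13 held 31 CpG and 74.4% G or C, and Hoxd3 held 12 and 49.2%. Over all entries the median G or C content was 58.4% for the 4 called promoters and 58.6% for the 20 others. The letters CAGCTG, an E-box of the kind that MyoD binds, which reads alike on both strands, occurred in 1 copy in the Hoxa3 sequence and in 13.1% of all promoters of the table. The letters TATAAA, searched on both strands, gave 2 matches that overlap in the Hoxd13 sequence and occurred in 12.4% of all promoters. These matches describe the letters alone.

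The clusters also hold microRNA genes, which are shown because members of 1 seed family sat in clusters of unlike accessibility. Capitals mark the seed, bases 2 to 8 of the mature RefSeq sequence.
mmu-miR-196b-5p, HoxA: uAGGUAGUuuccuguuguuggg
mmu-miR-196a-5p, HoxB and HoxC: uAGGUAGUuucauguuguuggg
mmu-miR-10a-5p, HoxB: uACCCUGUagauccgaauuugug
mmu-miR-10b-5p, HoxD: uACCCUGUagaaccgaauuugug
The first pair shares the seed AGGUAGU and the second pair the seed ACCCUGU. Members of the miR-196 family repress Hox transcripts. The hairpin of Mir196b in HoxA (chr6:52230081-52230165) lay 310 bp from Hoxa region 20, which was called in 14 of 20 libraries. The hairpin of Mir196a-2 in HoxC lay 2389 bp from Hoxc region 23, called in 17 libraries, and that of Mir196a-1 in HoxB lay 3370 bp from a region called in 2. The miR-10 hairpins lay 5348 bp (Mir10a, HoxB) and 10005 bp (Mir10b, HoxD) from the nearest region.

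The lists held 644 to 69881 peaks. The mean pileup over background, solved from the lists, was 1.42 to 5.88 in 18 libraries and 0.128 and 0.101 in the D5 CTL and D5 MR libraries of KO line 1, whose lists held 644 and 1881 peaks. These libraries stand apart, and results that rest on them are also given without them. Peaks lay near the ends of the myoblast genes Des, Cdh15 and Chrna1 in 18 libraries and of Myod1 in 17, whereas Myf5 and Pax7 had none, and Myog was called in 8 WT and 0 KO libraries. Of the markers listed for other cell types, Cdh5, Kdr and Pecam1 (endothelial), Adipoq and Fabp4 (fat) and Ptprc (blood) were called in 0 libraries. So were Neurod1 (neuronal) and Pou5f1 and Nanog (pluripotent). Other markers of these lists were called, Spi1 in 18 libraries, Pparg and Tubb3 in 17, Cd79a in 9, Sox2 in 5 and Snap25 in 3. A peak near an end of Setd2 was present in all 10 WT libraries and in the 8 KO libraries outside those of line 1 at D5, which does not check the edit.

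HoxA and HoxC were open and HoxB and HoxD held few peaks. The HoxA window (chr6:52135367-52280880) held 36 regions and the HoxC window (chr15:102901131-103056856) held 42, which is 24.7 and 27 regions per 100 kb. The HoxB window (chr11:96174316-96388254) held 6 regions, or 2.80 per 100 kb, and the HoxD window (chr2:74648225-74785142) held 2, or 1.46 per 100 kb. The share of the window that lay under a peak of any library was 8.35% in HoxA, 8.97% in HoxC, 0.354% in HoxB and 0.185% in HoxD. In the 18 libraries other than those of line 1 at D5, the regions called numbered 6 to 34 in HoxA, 9 to 37 in HoxC, 0 to 4 in HoxB and 0 to 2 in HoxD. The order of the clusters was therefore the same in every one of these libraries as far as HoxA and HoxC against HoxB and HoxD are concerned. The median share of the window under peaks in these libraries was 2.12% in HoxA, 3.14% in HoxC, 0.0531% in HoxB and 0.0230% in HoxD. It was 0.345% over the genome, with each chromosome taken up to its last peak.

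**Figure D1:**
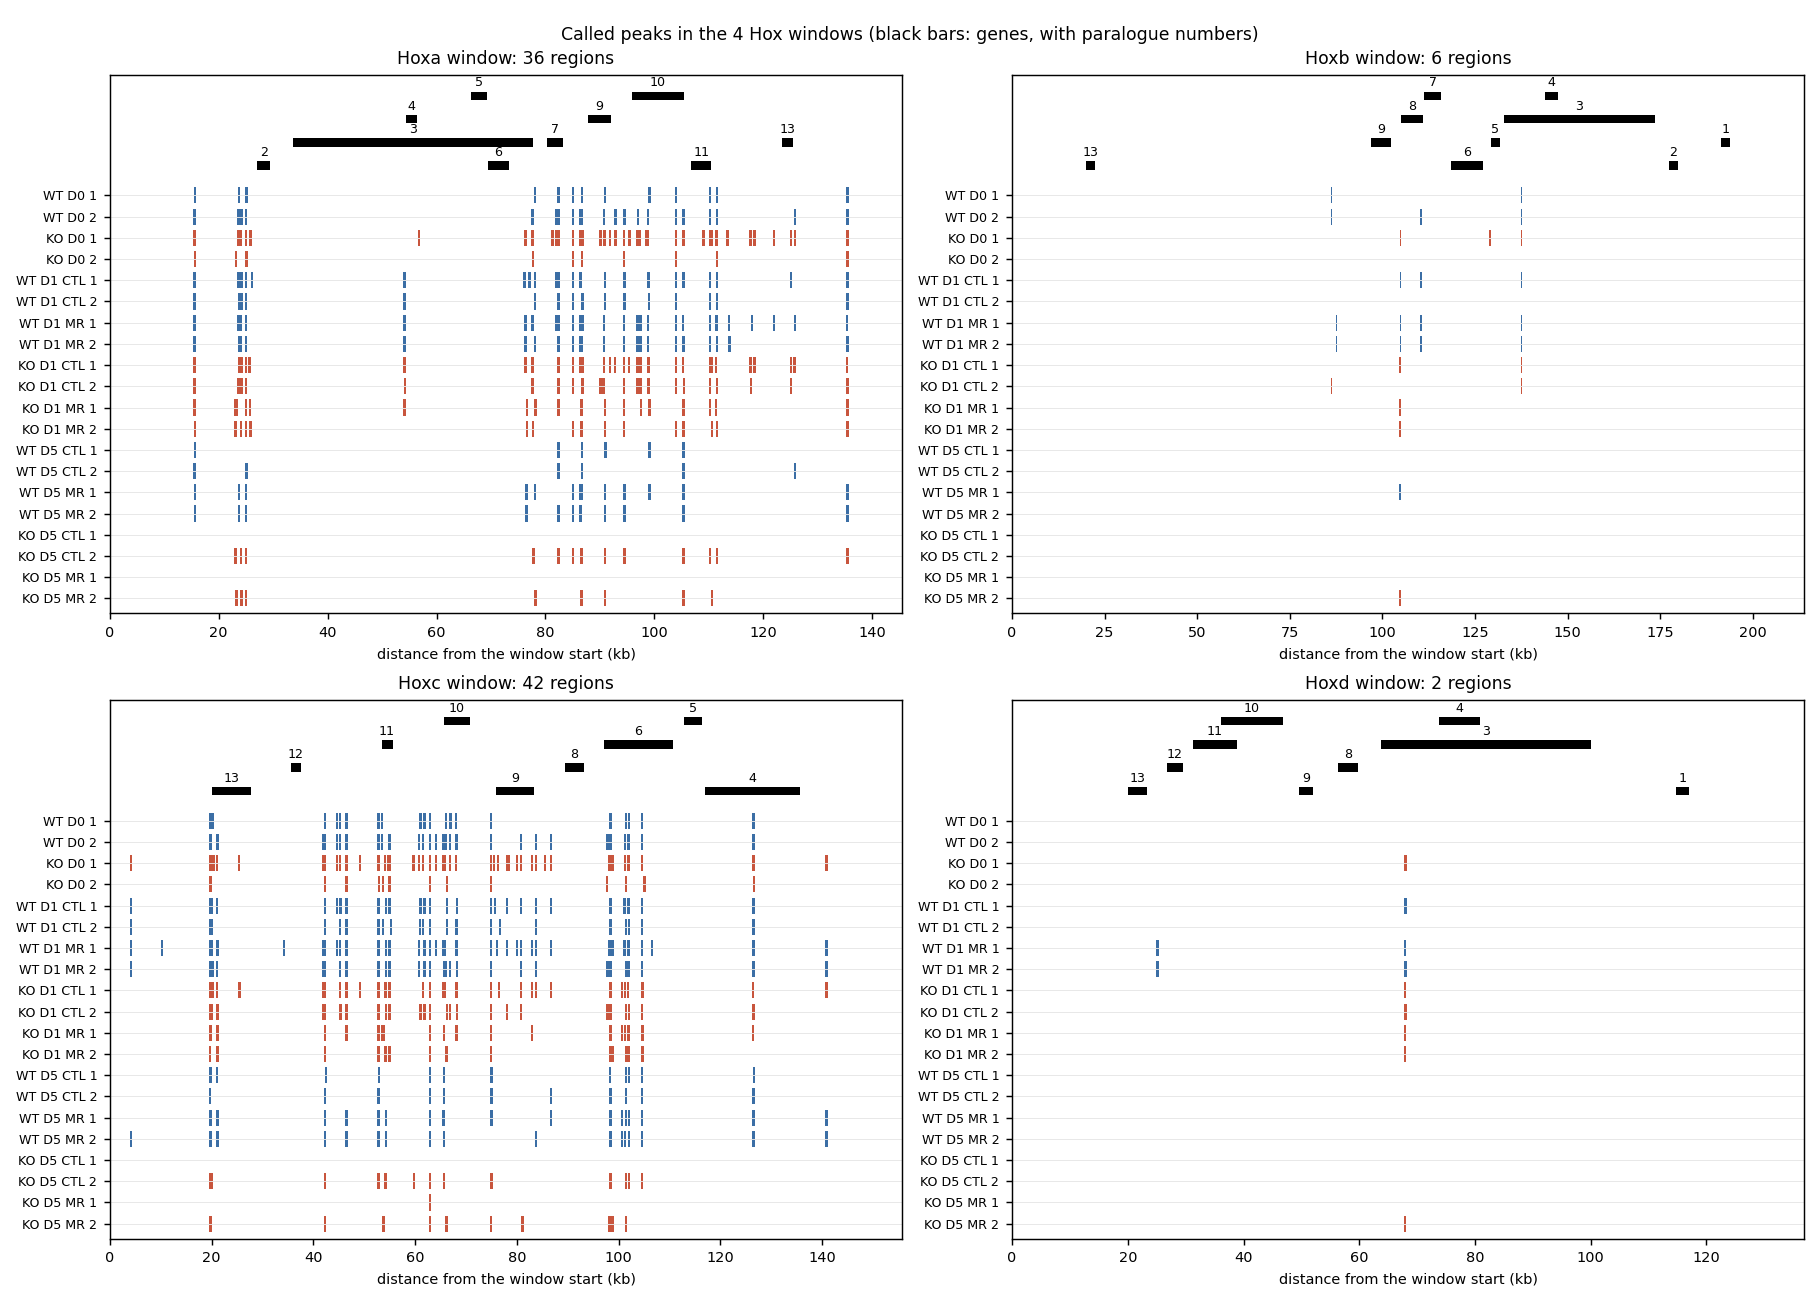
Peaks of each of the 20 libraries (rows; WT blue, KO red) along the 4 Hox windows, with distance from the window start in kb on the x axis and the genes named in the text as black bars with their paralogue numbers; short peaks are widened to be visible. HoxA and HoxC carry 36 and 42 merged regions, HoxB 6 and HoxD 2.

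Within the open clusters the peaks left long gaps. In HoxA no library had a peak over 27.9 kb (chr6:52161344-52189229), a stretch that holds the whole of Hoxa2, or over 19.4 kb (chr6:52191968-52211318) that holds Hoxa5 and Hoxa6. Both stretches overlap the Hoxa3 gene model, which at 44009 bp spans Hoxa4, Hoxa5 and Hoxa6. In HoxC the longest gap was 19.8 kb (chr15:103007559-103027370) and held Hoxc5, and a gap of 10.3 kb held Hoxc8. In HoxB, gaps of 86.1 kb and 76.4 kb held Hoxb13 and the set Hoxb1, Hoxb2 and Hoxb4. In HoxD a gap of 42.7 kb held the 5 genes from Hoxd8 to Hoxd12, and gaps of 69.1 kb and 24.9 kb held Hoxd1 with Hoxd4, and Hoxd13. Of the 86 regions, 37 lay within 1 kb of a Hox gene end, 20 of them in HoxA, 14 in HoxC, 3 in HoxB and 0 in HoxD.

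At the level of genes, 16 of the 39 were called in at least 1 library and 23 (59.0%) in none, against 42.2% in none among all 21631 genes. HoxA had 8 of 11 genes called, HoxC 5 of 9, HoxB 3 of 10 and HoxD 0 of 9. No library had a peak within 1 kb of either end of the 9 HoxD genes, from Hoxd1 to Hoxd13. The same held for Hoxb1, Hoxb2, Hoxb3, Hoxb4, Hoxb6, Hoxb9, Hoxb13, Hoxa2, Hoxa5, Hoxa6, Hoxc4, Hoxc5, Hoxc8 and Hoxc12. Farther from the ends, regions lay inside Hoxc4 (Hoxc region 41, 15 libraries), Hoxd3 (Hoxd region 2, 9 libraries) and Hoxb3 (Hoxb region 6, 8 libraries). With the distance set to 500 bp the number of genes called was 14, and with 2 kb it was 21, when Hoxa2 was called in 5 libraries and Hoxd12 and Hoxd13 in 2 each. At 500 bp Hoxa7 was called in 0 libraries against 14 at 1 kb, Hoxb7 in 0 against 4 and Hoxa9 in 2 against 16.

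Of the 9 posterior genes of HoxA and HoxC, 7 were called in 14 or more libraries, and the other two were Hoxa13 with 7 libraries and Hoxc12 with 0. In HoxC, Hoxc10, Hoxc11 and Hoxc13 were each called in 18 of 20 libraries, Hoxc9 in 15, and Hoxc6, a central gene used in the thorax and forelimb, in 14. In HoxA the anterior gene Hoxa3, needed for pharyngeal arch derivatives, was called in 15. Its calls lay at the promoter end of its 44009 bp gene model, at Hoxa region 10 (chr6:52212772-52213927), between Hoxa6 and Hoxa7. The other end of Hoxa3 lay in the gap of 27.9 kb, where no library had a peak. The posterior genes Hoxa9, Hoxa10 and Hoxa11, which pattern the limb, the uterus and the lumbar and sacral axis, were called in 16, 15 and 14 libraries, Hoxa7 in 14, Hoxa4 in 8 and Hoxa13, a gene of the digits and the hindgut, in 7. A call at a gene end need not lie at the promoter. The promoter entries of Hoxa7 and Hoxa9 were called in 0 libraries, and those of Hoxa10 in 0 and 1. In HoxB, Hoxb8 was called in 10 libraries, Hoxb7 in 4 and Hoxb5 in 1.

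Among the paralogue numbers given here, summed over the clusters, numbers 10 and 11 were called in 55.0% and 53.3% of gene and library pairs, 7 in 45%, 9 in 38.8% and 13 in 31.2%. Numbers 3, 6, 8 and 4 stood at 25.0%, 23.3%, 16.7% and 10.0%, number 5 at 1.67%, and numbers 2 and 12 were called in no pair. The numbers rest on 2 to 4 genes each and were not tested against one another. The calls of number 3 came from Hoxa3 alone, at its promoter end between Hoxa6 and Hoxa7. The 2 genes of number 7, Hoxa7 and Hoxb7, were called in 0 libraries at 500 bp. Over all 39 Hox genes 26.2% of pairs were called, against 40.3% for all protein-coding genes.

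**Figure D2:**
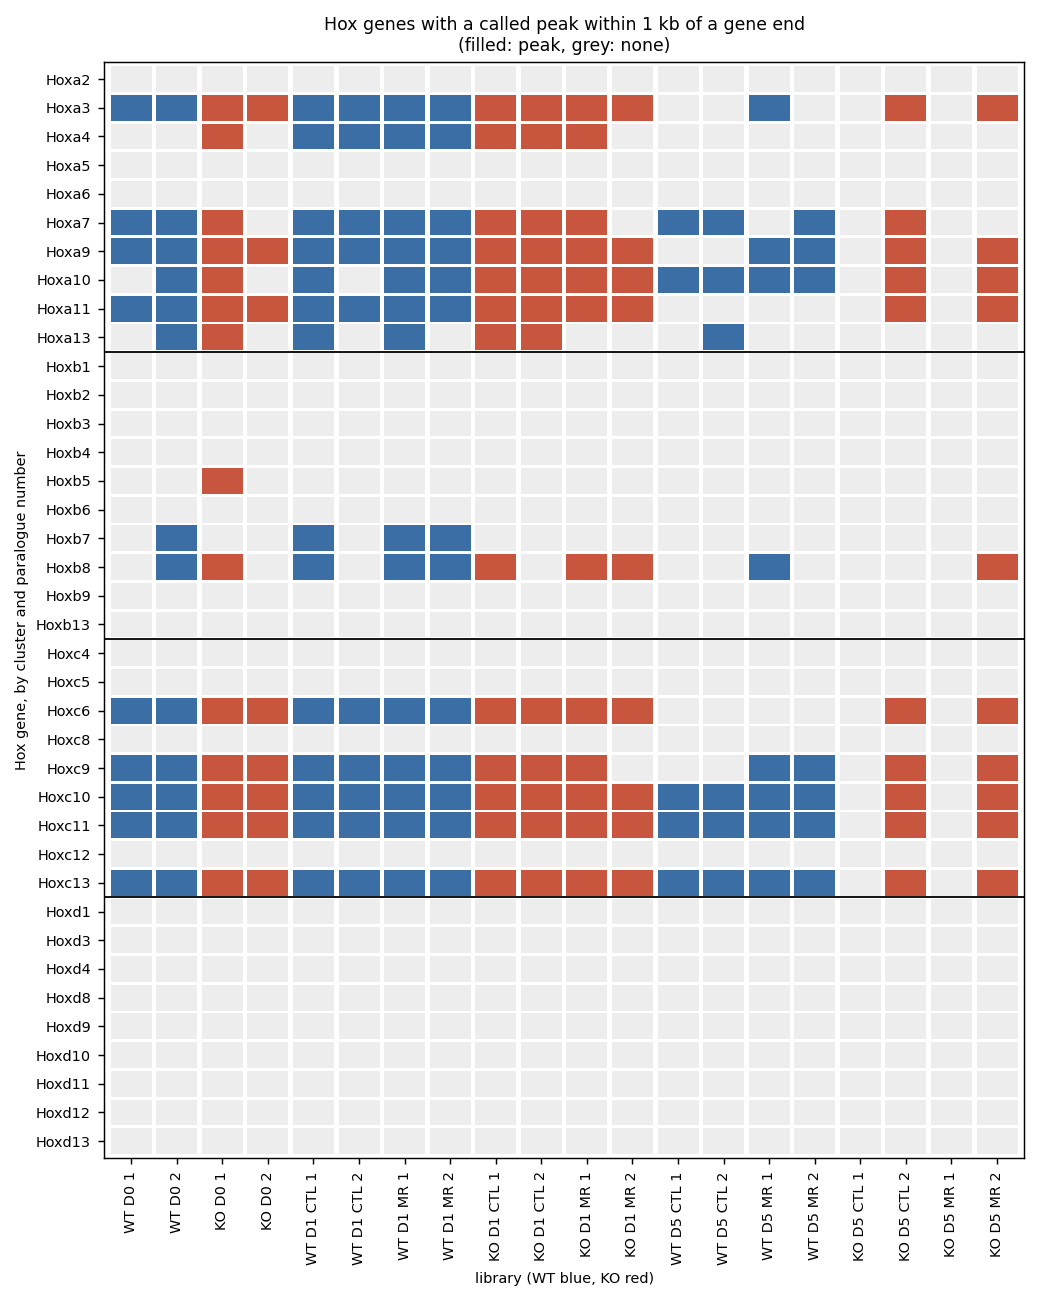
Filled cells mark a peak at most 1 kb from either gene end for the Hox genes named in the text (rows, by cluster and paralogue number) in the 20 libraries (columns, by group). HoxC genes 10, 11 and 13 are filled in 18 libraries, and HoxD is empty.

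Hox peaks ranked near the middle of their lists. Their median rank lay at 44.4% to 62.6% of the list over the 18 libraries, with 0% being the strongest peak. The strongest Hox peak of each library lay at 1.41% to 13.7%, and it was in HoxC in 17 of the 18 libraries. The exception was the D0 library of KO line 2, where Hoxa region 25 in the Hoxa10 body ranked first. Of the 86 regions, 7 were called in 18 or more libraries (8.14%, against 11.1% of all regions), and 6 of the 7 lay in HoxC. Another 12 were called in 1 library (14%, against 20.4% of all regions).

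The region called in most libraries, 19 of 20, was Hoxc region 18 (chr15:102963769-102964005), which lies between Hoxc11 and Hoxc10 outside any gene. Its −log10 q-value, a measure of peak strength given by the authors' lists that grows with depth, was 20.4 and 28.7 in WT D0, 60.4 and 14.8 in KO D0 (line 1 first), 27.1 and 24.6 in WT D1 CTL and 32.9 and 33.8 in WT D1 MR. It was 50.6 and 21.7 in KO D1 CTL, 28.1 and 16.1 in KO D1 MR, 9.10 and 8.70 in WT D5 CTL and 5.84 and 8.57 in WT D5 MR. At D5 KO line 2 gave 8.68 (CTL) and 7.28 (MR), and line 1 gave no peak and 1.0. The D5 values were the lowest numerically, but −log10 q-values depend on the depth of each list and set no level between libraries.

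The longest of the regions called in 18 libraries was Hoxc region 35 (chr15:102998038-103000233, 2196 bp), at an end of Hoxc6. In HoxA the region called most often was Hoxa region 15 (chr6:52221493-52222522), 575 bp from Hoxa9, with 18 libraries and −log10 q-values of 4.81 to 10.8 over the 10 WT libraries. In HoxB it was Hoxb region 3 (chr11:96278908-96279047), 354 bp from Hoxb8, with 9 libraries. In HoxD it was Hoxd region 2 (chr2:74715883-74716065), inside Hoxd3 and near an end of the antisense transcript Hoxd3os1, also with 9. ATAC-seq does not tell the 2 strands apart, so peaks there cannot be given to either gene.

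The first comparison asked whether loss of Setd2 changed the accessibility of the Hox clusters. For 14 of the 16 called Hox genes the number of libraries differed by at most 2 between the genotypes. Out of 10 libraries each, it was 7 in WT and 8 in KO for Hoxa3, 4 and 4 for Hoxa4, 8 and 8 for Hoxa9, 8 and 7 for Hoxa10, 6 and 8 for Hoxa11 and 4 and 3 for Hoxa13. In HoxC it was 6 and 8 for Hoxc6, 8 and 7 for Hoxc9 and 10 and 8 for each of Hoxc10, Hoxc11 and Hoxc13. The widest differences were at Hoxa7, with 9 WT and 5 KO libraries, and at Hoxb7, with 4 WT and 0 KO libraries. With a distance of 500 bp neither of these genes was called in any library.

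In exact permutation tests within the 5 combinations of day and medium, adjusted over all regions tested, 0 of the 15 Hox regions that could be tested passed an adjusted p of 0.05. The KO libraries were permuted singly although they came from 2 lines, so these p-values do not measure the spread between lines. Among all 18700 regions tested, 18.8% passed. At an unadjusted p under 0.05 there was 1 Hox region, where 50.8% of all regions tested had such a p. Over the 86 regions, 49 were called in a smaller share of KO than of WT libraries, 26 in a larger share and 11 in equal shares, and the median difference was −0.1 of the libraries, as it was over all regions. By cluster the median difference was 0 in HoxA (16 lower and 16 higher of 36) and −0.1 in HoxC (28 lower and 7 higher of 42). Of the gene ends, 3 Hox genes could be tested and 0 passed, where 1.62% of the 1850 genes tested passed. At an unadjusted p under 0.05 there were 0 Hox genes as well, against 44.9% of the genes tested.

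**Figure D3:**
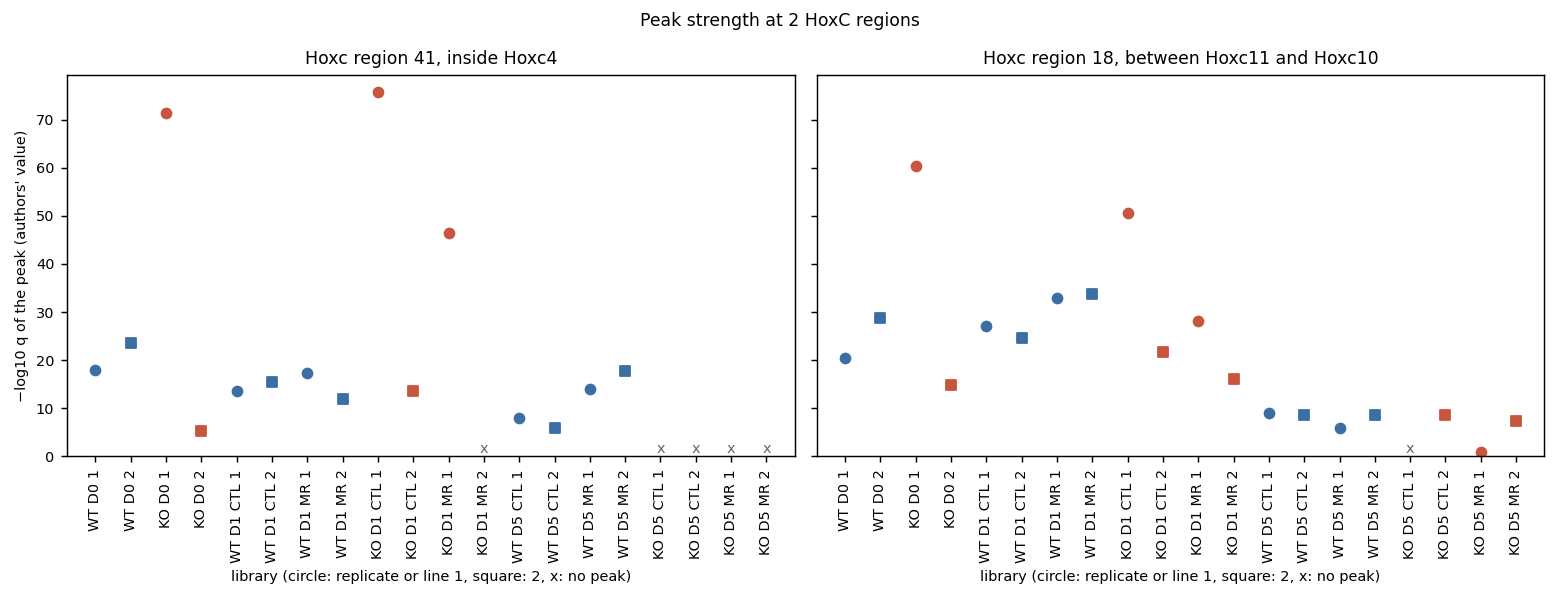
The −log10 q-value of the peak (y axis) in Hoxc region 41 and Hoxc region 18 in each library (x axis, by group); circles are replicate or line 1, squares replicate or line 2, and crosses mark libraries with no peak. At Hoxc region 41, KO line 1 stands at 46.4 to 75.6 at D0 and D1 and every WT library at 5.88 to 23.7.

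The Hox region with the smallest p was Hoxc region 41 (chr15:103027371-103027888), which lies in the body of Hoxc4 and at an end of the non-coding gene Gm30528. All 10 WT libraries had it, and 5 of the 10 KO libraries did (two-sided exact permutation p = 0.0278, adjusted p = 0.0666). Its −log10 q-values in WT were 18 and 23.7 (D0), 13.6 and 15.5 (D1 CTL), 17.3 and 12 (D1 MR), 8.04 and 5.88 (D5 CTL) and 14.1 and 17.8 (D5 MR). In KO line 1 they were 71.3 (D0), 75.6 (D1 CTL) and 46.4 (D1 MR), and in line 2 they were 5.32 (D0) and 13.7 (D1 CTL), with no peak in line 2 at D1 MR or in any of the 4 KO libraries at D5. Numerically line 1 was above the WT values of the same condition in each case, and line 2 below them at D0 and among them at D1 CTL, as a description of lists that differ in depth. The authors' fold enrichment over background at this peak was 13 to 17.4 in line 1, 4.67 and 7.38 in line 2 and 3.74 to 7.02 in WT, and it ranked at 1.41% to 4.99% of the list in line 1 and at 15.6% to 43.7% in WT. Without the D5 libraries the difference in calls was −0.167 with an exact permutation p of 1. At Hoxc region 18 line 1 stood at 60.4 and 50.6 at D0 and D1 CTL, above both WT values of the condition, and at 28.1 at D1 MR, below both.

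Condition by condition, few Hox regions separated the genotypes at D0 and at D1 in control medium. With 2 libraries against 2 the smallest two-sided exact p is 0.333, so these counts are descriptions. At D0, 1 Hox region was called in both WT and neither KO library (3.77% of all regions were), and 0 the other way (1.77%). The single one was Hoxb region 1 (chr11:96260387-96260568), 10762 bp from Hoxb9. At D1 in CTL, 3 HoxA regions were called in both KO and neither WT library (4.25% of all regions), and 1, Hoxc region 1 (chr15:102905041-102905215), in both WT and neither KO library (5.06%). The 3 were Hoxa regions 22 (chr6:52232027-52232189) and 23 (chr6:52232428-52232787) in the body of Hoxa10 and region 31 (chr6:52252829-52253151) between Hoxa11 and Hoxa13. These were weak peaks, with −log10 q-values of 2.33 and 2.72 at region 22 and of 3.12 and 3.51 at region 23 in line 1 and line 2.

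At D1 under MR, 13 Hox regions were called in both WT and neither KO library (13.9% of all regions), and 1 the other way (1.26%). The longest of the 13 were Hoxa region 30 (chr6:52248539-52248974) in the antisense gene Hoxa11os, Hoxc region 30 (chr15:102981719-102982138) in Hoxc9, Hoxc regions 16 and 17 (chr15:102961666-102962039 and chr15:102962488-102962819) between Hoxc11 and Hoxc10, Hoxc region 1 and Hoxa region 22. Hoxb7, a central gene used in the trunk, was called in both of these WT libraries and in neither KO library (4.29% of all genes). The WT lists here held 69881 and 57676 peaks and the KO lists 48460 and 35201, and with each list limited to its 20000 strongest peaks the 13 became 0 and the 1 became 2. At D5 the line 1 lists were too short to compare, and 2 (CTL) and 13 (MR) Hox regions were called in both WT and neither KO library, against 3.71% and 15.7% of all regions.

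Of the chromosomes of the open clusters, chromosome 6 took different shares of the lists in the genotypes, and on chromosome 15 the shares overlapped. Over the 18 libraries, 5.45% to 5.60% of KO peaks and 4.95% to 5.24% of WT peaks lay on chromosome 6, which holds HoxA, and the groups did not overlap. On chromosome 15, which holds HoxC, the shares were 5.85% to 6.90% and 5.57% to 6.30%, with medians of 6.36% and 5.82%. There KO line 1 stood at 6.03% (D0), 5.85% (D1 CTL) and 5.88% (D1 MR), inside the WT range, and line 2 at 6.34% to 6.90%, above it. The part of these shares in the Hox counts was not tested.

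The second comparison asked whether methionine restriction changed the clusters. Across genotypes and days, 2 Hox regions could be tested and 0 passed, where 0% of the 3909 regions tested passed, by exact permutation and Benjamini-Hochberg adjustment. At an unadjusted p under 0.05 there were also 0 Hox regions, where 5.88% of all regions tested had such a p. Of the 86, 33 were called in a smaller share of MR libraries, 29 in a larger share and 24 in equal shares, with a median difference of 0. For gene ends, 2 Hox genes could be tested and 0 passed (0% of 350 passed). The genotype by medium difference could be tested in 4 Hox regions, and 0 passed (0% of 8857 passed). Hoxc region 42 (chr15:103041746-103041878) had the smallest exact permutation p of these, 0.0278, with an adjusted p of 0.98, and was the single Hox region under 0.05 unadjusted, where 4.14% of all regions tested were.

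In WT cells more Hox regions were called under MR than in CTL at either day, as descriptions over 2 libraries a group. At D1 the Hox windows held 52 and 37 called regions in CTL and 64 and 51 in MR, and 6 regions were called in both MR and neither CTL library (7.73% of all regions), with 0 the other way (1.33%). These were Hoxa regions 22, 23 and 30, Hoxb region 2 (chr11:96261665-96261794), Hoxc region 42 and Hoxd region 1 (chr2:74673143-74673212). The latter, 1540 bp from Hoxd13, had a peak in these 2 MR libraries and in no other, with −log10 q-values of 2.83 and 2.0. Hoxa region 23 had values of 11.9 and 5.16. With the 20000 strongest peaks the 6 gained and 0 lost regions became 2 and 4, which turns the direction.

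At D5 the WT counts were 18 and 17 called regions in CTL and 30 and 28 in MR, so that the media did not overlap. In MR, 9 regions were called in both libraries and in neither CTL library (11.9% of all regions), and 0 the other way (0.211%). Among the 6 longest were Hoxc region 13 (chr15:102954339-102955281) at Hoxc11, Hoxa region 8 (chr6:52211319-52211892) in Hoxa3, Hoxc region 36 (chr15:103001523-103001701) in Hoxc6, Hoxa region 20 (chr6:52229595-52229771) by Mir196b and Hoxa region 36 (chr6:52270565-52270739) beyond Hoxa13. Hoxa region 36 had −log10 q-values of 4.77 and 7.82 in D5 MR and of 10.9 to 23.4 in the 4 WT libraries of D1. At gene ends, Hoxa9 and Hoxc9, which both pattern the trunk, were called in both MR and neither CTL library (5.92% of all genes). These gains depended on the distance of 1 kb, since at 2 kb each gene was called in 18 of 20 libraries. Hoxa region 15, 575 bp from Hoxa9, and Hoxc region 23, 870 bp from Hoxc9, were called in both CTL libraries. Of the regions named above as called in MR alone, Hoxc region 36 had no peak in the WT libraries of D1, and the other 4 had one in at least 1 of them.

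The lists were also longer in MR. WT D5 held 22465 and 20847 peaks in CTL and 39538 and 39263 in MR, while the backgrounds were close, at 5.29 and 5.88 in CTL and 5.17 and 5.45 in MR. With 20000 peaks a list, 15 and 17 Hox regions were called in CTL and 14 and 14 in MR, and the 9 gained and 0 lost regions became 2 and 3. In KO cells at D1 the counts ran the other way, with 58 and 47 regions in CTL and 36 and 31 in MR, and 7 regions were called in both CTL and neither MR library (2.74% of all regions), against 0 the other way (0.253%). Hoxa13 was called in both of these CTL libraries and neither MR library (1.46% of all genes). The KO lists at D1 held 61045 and 46664 peaks in CTL and 48460 and 35201 in MR. At D5 KO line 2 had 25 Hox regions in CTL and 19 in MR.

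**Figure D4:**
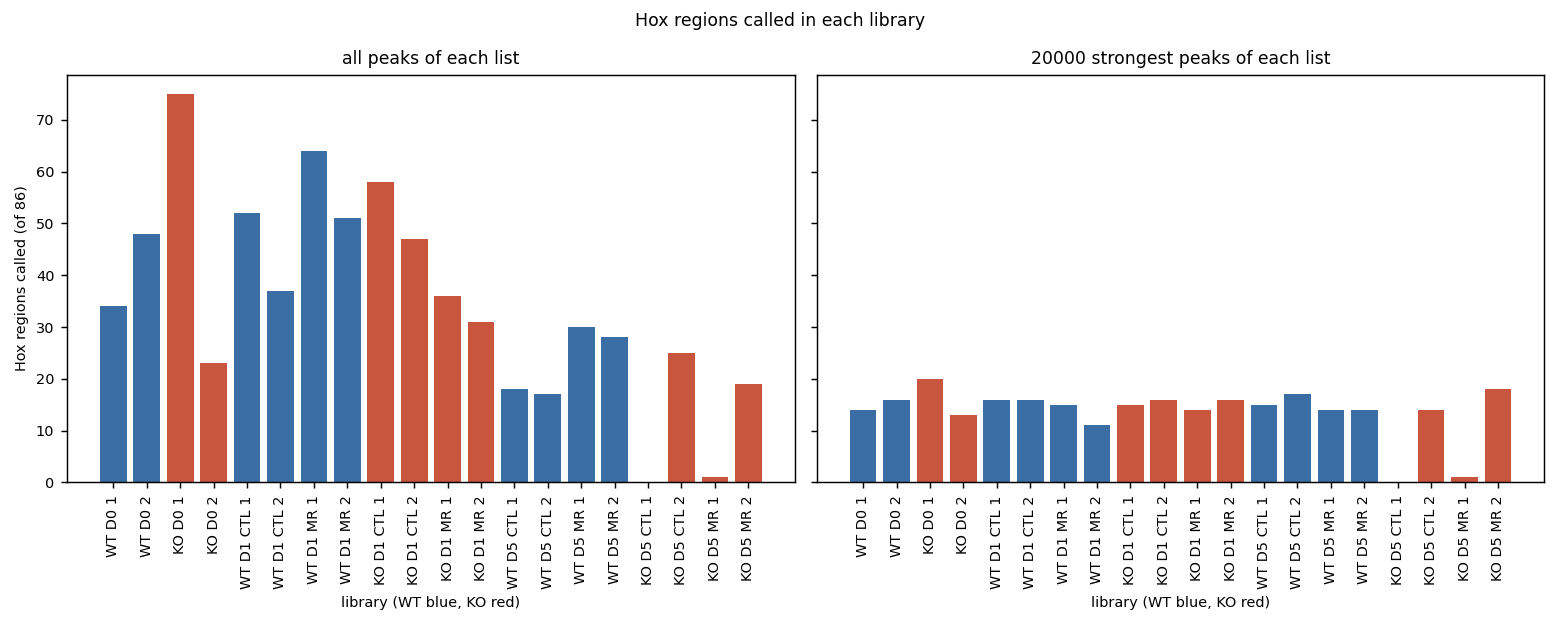
Number of the 86 Hox regions called in each library (y axis, where bars are libraries in group order on the x axis), from all peaks (left) and from the 20000 strongest peaks of each list (right). Counts from all peaks run from 17 to 75 in the 18 longer lists, and counts from equal lists from 11 to 20.

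The third comparison, D5 against D1, asked how the clusters changed with time, and fewer Hox regions were called at D5. In WT CTL the Hox windows held 52 and 37 called regions at D1 and 18 and 17 at D5, and in WT MR 64 and 51 against 30 and 28. KO line 2 had 47 (D1 CTL), 31 (D1 MR), 25 (D5 CTL) and 19 (D5 MR), and line 1 had 58 and 36 at D1 and 0 and 1 in its short D5 lists. The number of Hox genes called was 15 and 11 in WT D1 CTL and 5 and 7 in WT D5 CTL, and the HoxA window was covered by peaks over 3.31% and 2.17% of its length at D1 CTL and 0.382% and 0.423% at D5 CTL in WT. At D0 the counts spanned 34 and 48 in WT and 75 and 23 in KO line 1 and line 2, so that the KO lines lay on either side of both WT libraries. D1 against D0 was not among the tests run, and for D1 CTL alone the smallest two-sided exact p is 0.0556. From D0 to D1 in WT CTL, 2 Hox regions were gained (4.69% of all regions) and 2 lost (1.66%) in both libraries, and Hoxa4 was the single gene gained (0.929% of all genes). In KO, 1 was gained (1.44%), Hoxa region 6 near Hoxa4, and 0 were lost (0.266%).

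Of the 21 Hox regions that could be tested, 15 passed an adjusted p of 0.05, and all 15 were called in fewer libraries at D5. Over the genome 66.2% of the 16153 regions tested passed, and 10686 of these 10687 were lower at D5. The adjusted p of the 15 was at most 0.0420 (Benjamini-Hochberg over exact permutation p-values), and 17 of the 21 had an unadjusted p under 0.05, against 80.1% of all regions tested. Over the 86 regions 77 were called in a smaller share of D5 libraries, 1 in a larger share and 8 in equal shares, with a median difference of −0.375 against −0.25 over all regions. Of the 15, 7 were in HoxA, 6 in HoxC and 1 each in HoxB and HoxD.

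In HoxA the regions near Hoxa4, Hoxa10 and Hoxa11 fell. Hoxa region 6 (chr6:52189230-52189389), inside Hoxa3 and within 1 kb of Hoxa4, had a peak in 0 of 4 libraries at D0, in 7 of 8 at D1 and in 0 of 8 at D5. Its −log10 q-values at D1 were 2.84 and 5.47 in WT CTL, 3.30 and 3.94 in WT MR, 10.8 and 3.59 in KO CTL and 6.97 in KO MR line 1, with no peak in KO MR line 2. This region was thus present at D1 alone, in both genotypes. Hoxa region 25 (chr6:52239117-52239217), in the body of Hoxa10, was called in all 4 D0 libraries (16.5 to 24.7), in 7 of 8 at D1 and in 0 of 8 at D5. At D1 it stood at 29.0 and 21.2 in WT CTL, 19.4 and 20.7 in WT MR, 13.6 and 19.6 in KO CTL and 5.62 in KO MR line 2. It was among the strong HoxA peaks of the earlier days, and none was called at D5 in any medium or genotype.

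At Hoxa11, a posterior gene of the limb and the reproductive tract, a pair of neighbouring regions fell together. Hoxa region 28 (chr6:52245319-52246203), which covers the promoter printed above, was called in 8 D1 and 2 D5 libraries. Its D1 values were 12.9 and 7.27 (WT CTL), 8.06 and 11.1 (WT MR), 10.1 and 6.74 (KO CTL) and 3.45 and 1.86 (KO MR), and its D5 values were 1.85 and 2.46, in KO line 2. Hoxa region 29 (chr6:52246493-52246732), 683 bp from Hoxa11, was called in 8 and 1, with 15.4 and 8.74, 14.3 and 10.0, 8.21 and 13, and 2.97 and 5.95 at D1 in the same order, and 2.40 in KO D5 CTL line 2. In WT cells both were called in every D1 library and in no D5 library. Both overlap the antisense gene Hoxa11os, from which Hoxa11 cannot be told apart here.

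In HoxC the named regions lay at Hoxc11, at Hoxc10 and in Hotair, a non-coding RNA gene between Hoxc12 and Hoxc11. Hoxc region 14 (chr15:102955637-102956367) in Hoxc11 went from 7 of 8 to 0 of 8 libraries, with weak D1 values of 1.56 to 3.82. Hoxc region 22 (chr15:102968999-102969215) in Hoxc10 went from 7 to 0, with D1 values of 1.46 to 12. Hoxc region 9 (chr15:102946198-102946301) in Hotair went from 6 to 0, with D1 values of 3.70 to 11.2 and no peak in KO MR. In HoxD, Hoxd region 2 in Hoxd3 went from 7 to 1, with D1 values of 2.04 to 6.95 and 2.14 in KO line 2 at D5 MR.

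**Figure D5:**
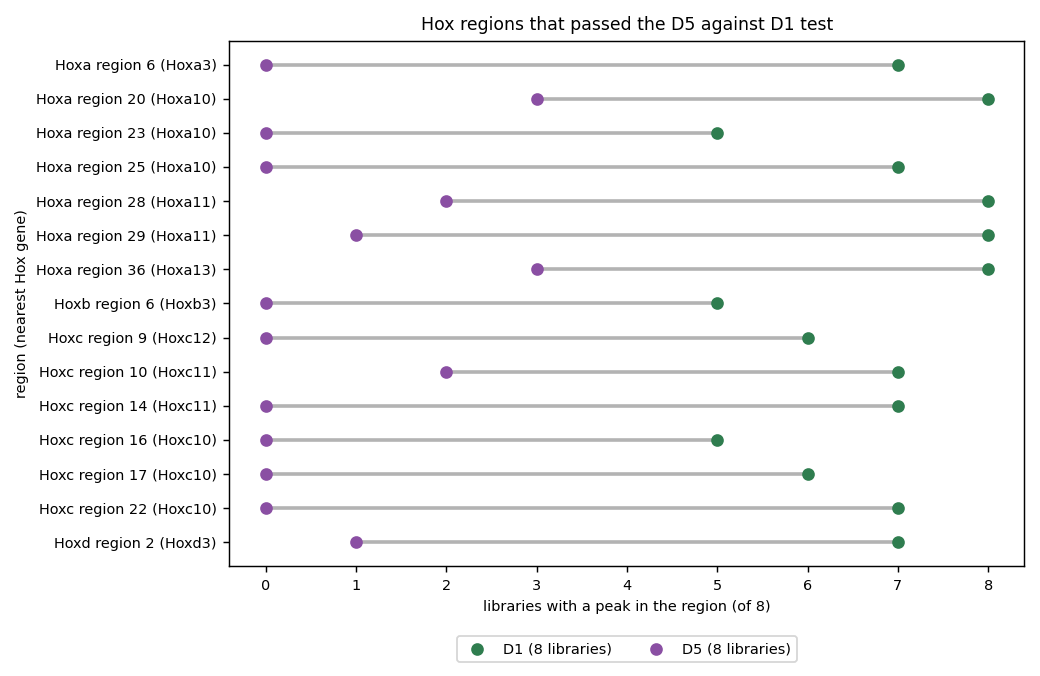
Number of libraries, of 8, in which each of the 15 Hox regions was called at D1 and at D5 (x axis; regions on the y axis). All 15 lie between 5 and 8 at D1 and between 0 and 3 at D5.

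In WT CTL, 19 Hox regions were called in both D1 and neither D5 library (19% of all regions) and 0 the other way (0.237%), and in WT MR 19 (15.7%) and 1 (1.21%). The genes that went this way were Hoxa3, Hoxa4, Hoxa9, Hoxa11, Hoxc6 and Hoxc9 in CTL (8.93% of all genes) and Hoxa4, Hoxa11, Hoxb7 and Hoxc6 in MR (4.98%). At 2 kb Hoxa9, Hoxa11, Hoxc6 and Hoxc9 were each called in 18 of 20 libraries, so their loss depended on the distance used.

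The other 7 of the 15 regions went from 5 to 8 libraries at D1 to 0 to 3 at D5. Of the 15 regions, 14 were also called in at least 1 D0 library. At D5 in WT, 0 of the 15 were called in any CTL library and 3 in MR libraries, Hoxa regions 20 and 36 and Hoxc region 10 (chr15:102947393-102947551, in Hotair), each in both. Without KO line 1, 9 of the 15 were called in 0 of the 6 D5 libraries. The number passing depended on the libraries kept, and leaving libraries out allows fewer small p-values. The 15 became 0 without the D5 libraries of KO line 1 (10 regions at an unadjusted p under 0.05), 0 without WT replicate 1, 0 without WT replicate 2, 8 without KO line 1 and 9 with libraries of the same number kept together as a block. With only the KO lines paired, 17 passed, among them all 15.

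At gene ends, 6 Hox genes could be tested and 3 passed, where 63.6% of 1788 genes tested passed. At an unadjusted p under 0.05 there were 4 Hox genes, against 79.2% of the genes tested. Hoxa4, a central gene of the neck and upper trunk, went from 7 of 8 libraries at D1 to 0 of 8 at D5 (exact permutation p = 0.00463, adjusted p = 0.0414). Hoxa11 and Hoxc6 went from 8 of 8 to 2 of 8 each (exact permutation p = 0.0139, adjusted p = 0.0414), and the 2 were those of KO line 2. Hoxa3 went from 8 to 3 and did not pass (exact permutation p = 0.0417, adjusted p = 0.0526). Hoxc10, Hoxc11 and Hoxc13 were called in 8 D1 libraries and in 6 at D5, where the 2 missing were those of line 1, and Hoxa10 in 7 and 6. With the KO lines paired, 0 of the 3 passed, with an adjusted p of 0.0502, and with a distance of 2 kb to a gene end 1 did, Hoxa4. The 3 also became 0 without the D5 libraries of KO line 1, without WT replicate 1, without WT replicate 2 and with the 20000 strongest peaks, where the Hoxc6 difference turned to 0.25. At 2 kb Hoxa11 and Hoxc6 were each called in 18 of 20 libraries, against 14 at 1 kb. The fall of these genes thus depended on the distance used. Hoxc region 35, at an end of Hoxc6, was called in 8 D1 and 6 D5 libraries.

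The fall in the number of Hox regions did not appear in lists of equal length. Among the 20000 strongest peaks of each list, 13 to 20 Hox regions were called at D0 (4 libraries), 11 to 16 at D1 (8 libraries) and 14 to 18 at D5 (6 libraries), so the days overlapped. By cluster the equal lists gave 3 to 8 regions in HoxA, 7 to 12 in HoxC and 0 or 1 in HoxB and in HoxD. On this scale 0 Hox regions passed for D5 against D1 (1 at an unadjusted p under 0.05), and this was Hoxa region 25 (difference −0.75, exact permutation p = 0.0139, adjusted p = 0.159). WT backgrounds were 3.17 to 3.53 at D1 and 5.17 to 5.88 at D5, so the WT D5 lists were shorter at a higher background.

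Genes that act with or upon the Hox genes were counted in the same way, beside 42.2% of all genes called in no library and 63.6% of the genes tested passing for D5 against D1. Of the Hox cofactors, 8 of 9 were called at a gene end, with Meis1, Pknox1 and Pknox2 in 19 libraries each and Meis3 in 0. Of the Polycomb genes, 20 of 21 were called, and 3 of the 4 that could be tested fell from D1 to D5. These were Ezh1, an H3K27 methyltransferase (6 of 8 to 0 of 8 libraries), Rnf2, a ubiquitin ligase of histone H2A (7 to 2), and Phc1 (6 to 1), with adjusted p of at most 0.0436 in the exact permutation test. Of the trithorax and H3K27 demethylase genes 7 of 10 were called, and Kmt2a (6 to 1), which methylates H3K4 at Hox genes, and Kdm6b (5 to 0) passed for D5 against D1, as 2 of 3 tested. Of the caudal and retinoic acid genes, which set Hox expression in the embryo, 3 of 10 were called, with Cdx1, Cdx2 and Cdx4 in 0 libraries, and the retinoid receptors Rara and Rxra fell from 6 to 0 libraries each, as 2 of 2 tested. These D5 counts stand near the share over all genes tested, and all gene-end calls of D5 against D1 are lost, 0 of 1298 genes tested passing, without the D5 libraries of KO line 1. The same holds with the 20000 strongest peaks (0 of 1419) and with the KO lines paired (0 of 1526). In KO against WT, 0 of 3 cofactors, 0 of 4 Polycomb genes and 0 of 1 trithorax gene that could be tested passed, with 2, 2 and 0 at an unadjusted p under 0.05, where 1.62% of all genes tested passed and 44.9% had such a p.

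Of 57 homeobox genes outside the clusters, 32 (56.1%) were called in no library, beside 23 of 39 (59.0%) of the Hox genes and 42.2% of all genes. In KO against WT 1 of the 7 that could be tested passed, Lhx2, with 9 WT and 0 KO libraries (exact permutation p = 0.000772, adjusted p = 0.0476), where 1.62% of all genes tested passed. The KO libraries came from 2 lines and were permuted singly, so this p does not measure the spread between lines. For D5 against D1, 0 of 6 tested passed, with 4 at an unadjusted p under 0.05, where 63.6% of all genes tested passed and 79.2% had such a p.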

How the data were processed

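ATAC-seq libraries were tagmented with a commercial kit and amplified with 10 PCR cycles, per the labels' protocols. The build is GRCm38, per the submitters' processing notes. The aligner, the filters and the peak caller are not given in the sources used here. The authors deposited 1 broadPeak list per library, with replicates not pooled. The deposited columns are the peak score, the ratio of signal to background (fold enrichment) and the −log10 p-value and q-value. The lowest deposited −log10 q-value was 1.0. These values were used to rank or filter peaks within their list, and where they are printed side by side between lists they describe the lists, since they depend on depth.

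The background pileup was solved from fold and −log10 p-value under a Poisson formula that is an assumption, and read depth is unknown. Groups were taken from the sample titles. Genes and promoters come from RefSeq tables of GRCm38.p6. Calls were tested by two-sided exact permutation of libraries within strata of the other factors. Benjamini-Hochberg adjustment ran over all regions, or genes, for which a p of 0.05 or lower was reachable. The scripts were tested on simulated data. Python 3.11.15, numpy 2.4.6, pandas 2.3.3, scipy 1.17.1 and matplotlib 3.10.9 were used.

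The members and the gene lists were chosen with earlier results of these data known. Named were genes past the adjusted threshold or with the smallest unadjusted p, genes called in most and in no libraries, the 8 passing regions with the largest difference, the region of each window called most often, and the 6 longest regions separating groups of 2. Results on 2 genes are not reported here. Anything else named was chosen after its values were seen, which holds for Hoxc region 41. KO libraries pair by line, per the labels, and deviations of same-line libraries correlated at 0.115 to 0.647 (10 of 10 pairs over 0.1). The highest value was that of D5 CTL and D5 MR, where the line 1 lists were short, and the pairs without D5 stood at 0.258, 0.266 and 0.396. In WT the correlations were −0.0296 to 0.0450 (0 of 10 over 0.1), and the labels do not say whether a WT replicate number marks a shared culture.

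Alternatives were a −log10 q-value of at least 5, the 20000 strongest peaks, 50% coverage, 1 kb bins, other gene distances, left-out libraries and replicate blocks.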

Additional observations from a re-analysis of the deposited data

Results flagged for a closer look

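In HoxB, methionine restriction at D1 moved the number of called regions in opposite directions in the genotypes, which is what marked this result for a second look. In WT the libraries held 3 and 0 HoxB regions in CTL and 4 and 4 in MR, a difference of 2.5, and in KO they held 2 and 2 in CTL and 1 and 1 in MR, a difference of −1. The gap between these differences was 3.5 regions, and it was not tested. The WT lists were longer in MR than in CTL and the KO lists were shorter. Among the 20000 strongest peaks, HoxB had 0 or 1 called region in each of the 18 longer lists.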

How the results depend on the processing

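For KO against WT, MR against CTL and genotype by medium, the number of Hox regions or gene ends passing stayed 0 under every alternative run. For D5 against D1 the 15 regions became 0 with the 20000 strongest peaks, 23 with 1 kb bins, 0 without the D5 libraries of KO line 1 and 9 with the replicate block, which moved no count for the other contrasts. Leaving out 1 replicate number gave 0 to 11 regions, where fewer libraries allow fewer small p-values. The 3 gene ends became 5 with −log10 q of at least 5, 0 with the 20000 strongest peaks, 1 with 2 kb to a gene end, 0 without the D5 libraries of KO line 1, 3 with the replicate block and 0 with a block of KO lines only, which was chosen after seeing the data, and leaving out 1 replicate number gave 0 to 4. Directions reversed with the 20000 strongest peaks at Hoxd region 2 (0.125), Hoxa region 20 (0.125) and Hoxc6 (0.25), and with 50% coverage at Hoxc region 41 for KO against WT (0.1) and Hoxa region 10 for D5 against D1 (0.125). The cause was not tested.

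Counts over 2 libraries a group moved as follows. With −log10 q of at least 5, regions lost went from 1 to 0 (KO D0), 1 to 0 (KO D1 CTL), 7 to 2 (KO MR against CTL at D1), 2 to 0 (WT D1 against D0) and 19 to 10 (WT D5 against D1, CTL), and regions gained from 1 to 0 (KO D1 MR), 9 to 5 (WT MR against CTL at D5), 2 to 0 (WT D1 against D0) and 1 to 0 (WT D5 against D1, MR). With the 20000 strongest peaks, gained and lost were 0 and 0 (KO D0), 1 and 0 (KO D1 CTL), 2 and 0 (KO D1 MR), 2 and 4 (WT MR against CTL at D1), 2 and 3 (the same at D5), 1 and 1 (KO MR against CTL at D1), 1 and 0 (WT D1 against D0), 3 and 5 (WT D5 against D1, CTL) and 3 and 3 (the same, MR). Without the flanks, 0 were lost in KO D1 CTL and 1 was gained in WT D1 against D0. A region not called may hold open chromatin below the threshold of its list, and the short D5 lists of KO line 1 limit every D5 value of the KO.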
